A study of Mus musculus with 46 samples.

Results

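The tissue compared here is the anterior-apical part of the left ventricle, where a heart infarct forms, in 2 inbred mouse strains, C57BL/6J and MRL/MpJ, before and 5 days after a myocardial infarction. For each gene the change from day 0 to day 5 in MRL/MpJ was set against the same change in C57BL/6J, so that a positive difference of changes means that the gene rose more, or fell less, in MRL/MpJ. The comparison used 15 of the 46 arrays of the series, chosen by their sample titles: 3 C57 arrays of day 0, 4 C57 arrays of day 5, 4 MRL arrays of day 0 and 4 MRL arrays of day 5. All mice were male and 15 to 20 weeks old. Day 0 hearts came from healthy mice without an operation, and day 5 hearts from mice whose left coronary artery had been tied, so the day 5 groups carry the chest surgery as well as the infarct and no sham-operated heart was analysed here. The piece was cut with a biopsy punch and held the infarct with its border region, hence a mixture of dying or surviving heart muscle, inflammatory cells and growing scar. In such bulk samples, fewer cells of a type and less RNA per cell cannot be told apart. Arrays of 1 group were labelled as biological replicates, and whether each came from 1 mouse is not given in the sources used here.

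An infarct kills heart muscle, which in the mouse is replaced by scar. Neutrophils arrive first, monocytes and macrophages follow and clear the debris, and in the days after myofibroblasts fill the wound with collagen while new vessels grow in. MRL/MpJ mice are known for closing ear hole wounds with little scar, and whether their hearts respond to an infarct otherwise than those of a common laboratory strain is the question the comparison addresses. Expression was measured on MOE430A arrays, and values are log2 of the deposited GCRMA intensity. On this scale, values of 2 to 4 lie below the median probe set of an array, which was between 4.25 and 4.48 on the infarct arrays.

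A pair of day 5 libraries went against their strain labels, and differences are therefore given with and without the one that enters the comparison. Over the other 44 arrays, 13 probe sets separated the strains by more than 1 log2 unit with no overlap, among them sets for B4galnt2, Pam and Wdfy1, higher in MRL, and for Stk25, Rpgrip1 and Uqcr10, higher in C57. The library labelled MRL infarct day 5 replicate 3 lay nearer to the C57 mean than to the MRL mean at 13 of 13. The library labelled C57 noninfarct day 5 replicate 3, which is outside this comparison, lay nearer to the MRL mean at 13 of 13. No other array had fewer than 92.3% of such probe sets on its own strain's side when it was left out of choosing them.

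**Figure D1:**
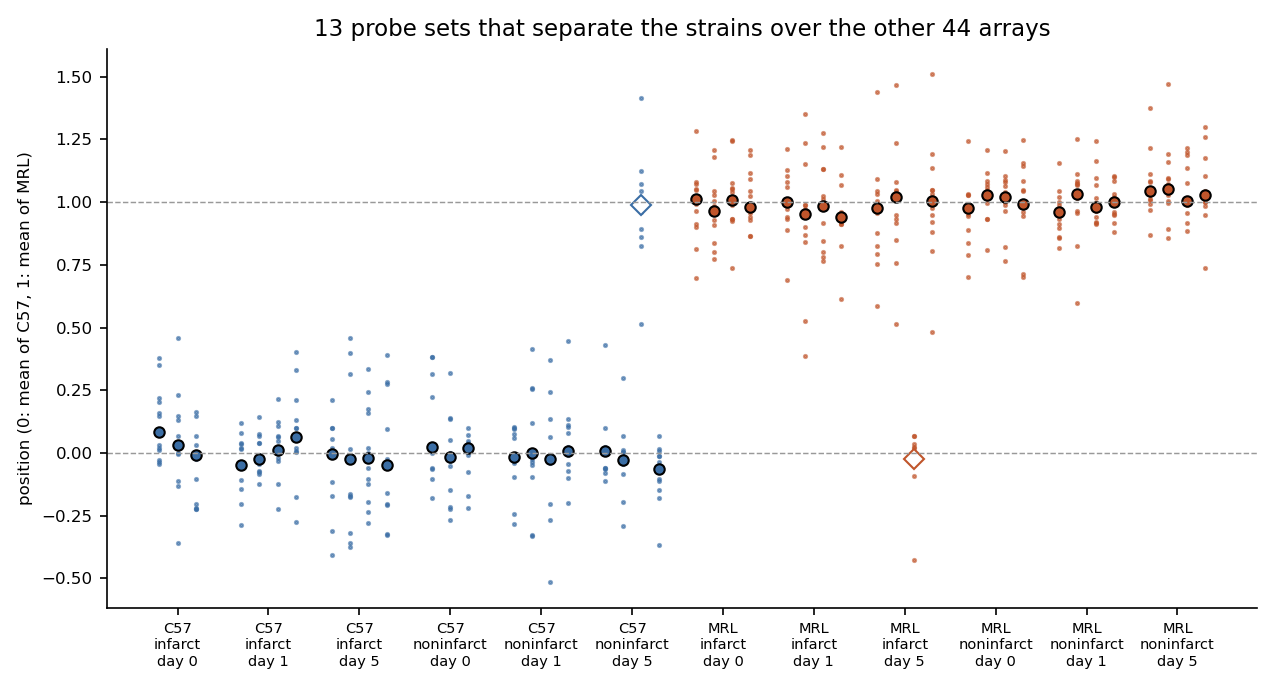
Position of each of the 46 arrays at the 13 strain-separating probe sets, on a scale where 0 is the mean of the C57 arrays and 1 the mean of the MRL arrays (vertical axis), by strain, region and day (horizontal axis). Small dots are probe sets, large symbols the median of an array, and the 2 open diamonds, the libraries labelled C57 noninfarct day 5 replicate 3 and MRL infarct day 5 replicate 3, lie at the level of the other strain.

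The same library stood apart in its cell markers. The median log2 level of 24 heart muscle fibre genes was 13.4 in MRL infarct day 5 replicate 3 and 12.2, 11.7 and 12.1 in replicates 1, 2 and 4, against 13.6 to 13.7 in the MRL day 0 arrays. The median of 29 macrophage and monocyte markers was 5.83 in replicate 3 and 9.59, 9.95 and 9.76 in the others. Among the C57 day 5 arrays, replicate 1 had the most heart muscle signal, 13.2 against 12.1 to 12.5, and the least macrophage signal, 7.88 against 8.99 to 9.37. The library labelled C57 noninfarct day 5 replicate 3 had a heart muscle median of 12.3 and a macrophage median of 9.26, where the other 3 arrays of its group had 13.0 to 13.5 and 5.48 to 7.74. No label was changed and no array was moved to another group; the cause was not tested.

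With all arrays, 20 of 12834 probe sets tested (0.156%) had a difference of changes with an adjusted p under 0.05 in limma, with Benjamini-Hochberg adjustment, 3 of them positive (0.0234%) and 17 negative (0.132%). At an unadjusted p under 0.05, 443 probe sets (3.45%) were past the threshold. Without MRL replicate 3, 74 of 12827 (0.577%) were called, 40 positive (0.312%) and 34 negative (0.265%), and 868 (6.77%) had an unadjusted p under 0.05. All 20 calls made with every array were among the 74, in the same direction. Represented by its brightest tested probe set, a gene was called in 13 cases with all arrays (3 positive, 10 negative) and in 49 without replicate 3 (29 positive, 20 negative). Changes within a strain were far more common: in the fit without replicate 3, 26.6% of probe sets rose and 26% fell from day 0 to day 5 in MRL, and 25% rose and 20.7% fell in C57. In 43 of the 49 genes, the mean of 1 or more groups lay lower than every array median, so most of these differences set a higher level against one in the lower part of the array's scale.

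Of the 49 genes, 48 fell into 4 patterns, described in turn, and Pcolce2 into none of them: genes that rose in C57 infarcts and for which a smaller rise or none was called in MRL; genes higher in MRL hearts before the infarct that fell there; genes higher in C57 hearts before the infarct that fell there; and genes that rose in MRL infarcts beyond C57. The first 3 patterns had genes called with all arrays, and the last had none.

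**Figure D2:**
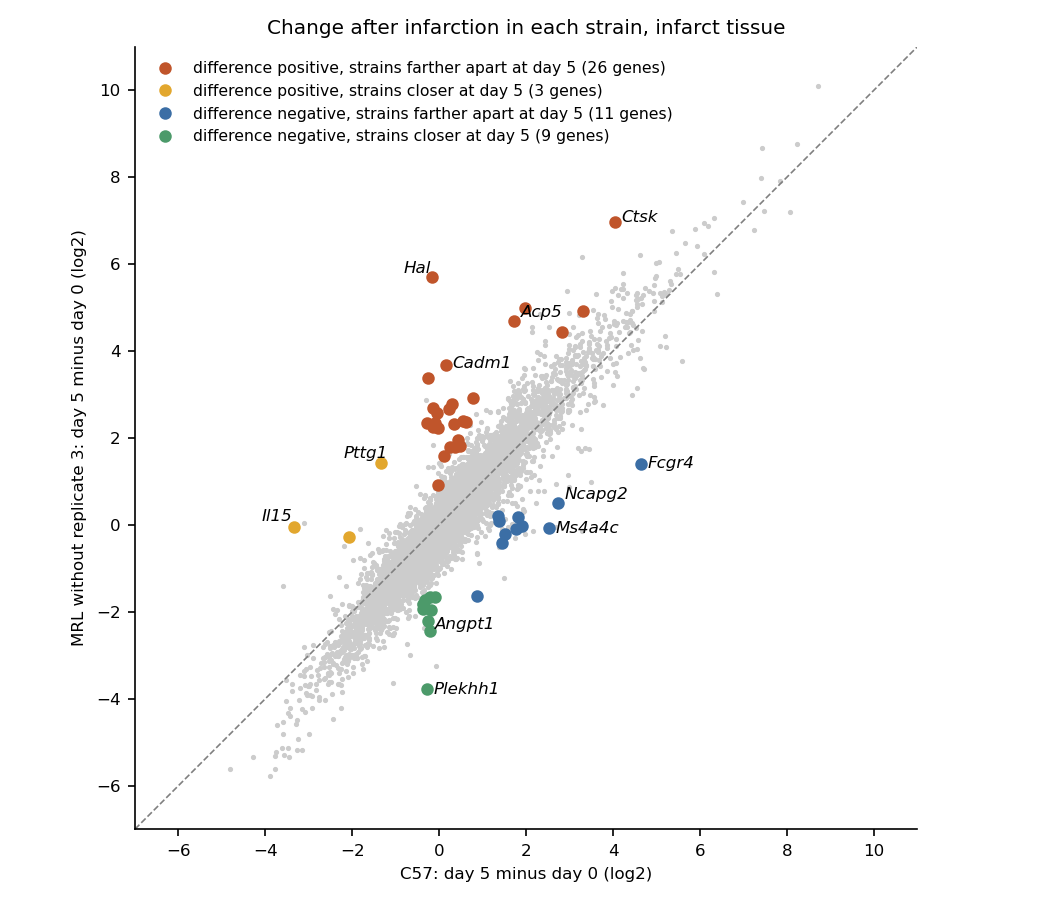
Change from day 0 to day 5 in C57 (horizontal axis) and in MRL without replicate 3 (vertical axis), in log2 units, for the genes tested in infarct tissue (grey). Coloured points are the 49 genes called without MRL replicate 3, 26 and 3 above the line of equal change and 11 and 9 below it, split by whether the strains were farther apart or closer at day 5 than at day 0.

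In all, 10 genes rose in C57 infarcts and were called as rising less in MRL without replicate 3, and 4 of them, Fcgr4, Ms4a4c, Kcnj15 and Cd300ld, also with all arrays. Fcgr4 encodes an activating receptor for the constant part of IgG on myeloid cells. Its log2 level was 1.90, 1.84 and 1.81 in the C57 arrays of day 0 and 5.47, 6.72, 6.62 and 7.15 at day 5. In MRL it was 1.82, 1.84, 1.80 and 1.83 at day 0 and 3.35, 3.46 and 2.90 in replicates 1, 2 and 4 at day 5, with 2.33 in replicate 3. The gene was low in both strains before the infarct, and at day 5 every C57 array lay above every MRL array. The log2 level rose by 4.64 in C57 and by 1.41 in MRL without replicate 3, both from a day 0 level far below the median probe set. The scale is compressed there, and the true size of a change is uncertain. The difference of changes was -3.23 ± 0.37 (SE) log2 units (adjusted p = 3.22e-05), or -3.46 ± 0.39 with all arrays (adjusted p = 8.34e-05).

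Ms4a4c, a member of the multi-pass membrane protein family of CD20 found on myeloid cells, was at 3.28 to 3.50 in C57 at day 0 and at 4.50, 6.67, 6.40 and 5.99 at day 5. All 8 MRL arrays of both days lay between 3.09 and 3.38, below every C57 day 5 array. Its difference was -2.60 ± 0.46 without replicate 3 (adjusted p = 0.00604) and -2.62 ± 0.44 with all arrays (adjusted p = 0.00963). Of another Ms4a4c probe set, the difference was in the same direction and was not called, with an adjusted p of 0.15 without replicate 3. Cd300ld, a receptor of the CD300 family of myeloid cells, was at 5.63 to 6.28 in C57 at day 5 and at 4.28 to 4.61 in the MRL arrays of day 5, replicate 3 included. Its difference was -1.30 ± 0.24 without replicate 3 (adjusted p = 0.00995) and -1.29 ± 0.23 with all arrays (adjusted p = 0.0117). The Cd300ld call was lost without MRL day 5 replicate 4 beside replicate 3 (adjusted p = 0.0538) and, of all arrays, without C57 day 0 replicate 2 (adjusted p = 0.0698) or 3 (adjusted p = 0.0709). Kcnj15, an inward rectifier potassium channel, was at 4.36 to 5.97 in C57 at day 5 and at 3.20 to 3.65 in MRL, with a difference of -1.93 ± 0.35 without replicate 3 (adjusted p = 0.00802) and -1.93 ± 0.33 with all arrays (adjusted p = 0.0117, or 0.0506 without C57 day 0 replicate 3).

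The other 6 members of this group, and Pcolce2, were called without replicate 3 and not with all arrays. With array weights, an alternative that keeps replicate 3 and lets it count for less or more by its fit, all 7 were called. That fit called 102 of 12834 probe sets as negative, against 17 without weights. The 7 genes had been chosen without replicate 3, so a fit that may count it for less is not a separate test of them. Oasl1, an interferon-induced protein related to the oligoadenylate synthetases, was at 4.07 to 5.28 in C57 at day 5 and at 2.92, 3.38 and 3.10 in MRL, with 3.71 in replicate 3. Its difference was -1.61 ± 0.30 (adjusted p = 0.00995) and -1.47 with all arrays (adjusted p = 0.0554). Of all arrays, Oasl1, Slfn8 and Ncapg2 were called when C57 day 5 replicate 1 was left out, Ncapg2 also without MRL day 5 replicate 2 and Wfdc18 without C57 day 5 replicate 4. Slfn8 and Trim34a, which belong to families with interferon-induced members, differed by -1.72 ± 0.35 (adjusted p = 0.0228) and -1.85 ± 0.42 (adjusted p = 0.0451). Ncapg2, a subunit of the condensin complex that compacts chromosomes for division, rose by 2.74 log2 units in C57 and stood at 3.75, 5.16 and 4.47 in MRL at day 5, with 5.04 in replicate 3. Its difference was -2.23 ± 0.46 (adjusted p = 0.0226), and the call was lost when any of 7 single arrays was left out as well, with adjusted p up to 0.0928. These were C57 day 0 replicates 2 and 3, C57 day 5 replicate 3, MRL day 0 replicates 1 and 4 and MRL day 5 replicates 1 and 4. Galc, the lysosomal galactosylceramidase, differed by -1.87 ± 0.39 (adjusted p = 0.0258), but a second Galc probe set went the other way, at 1.38, and was not called. Wfdc18, a small secreted protein with a whey acidic protein domain, differed by -1.15 ± 0.26 (adjusted p = 0.0391). Pcolce2, an enhancer of collagen propeptide cleavage, did not follow the group: it fell in MRL, to 4.51, 3.69 and 3.98, and stood at 6.04 to 7.21 in C57 at day 5, with 5.96 in MRL replicate 3, for a difference of -2.49 ± 0.55 (adjusted p = 0.0375). With all arrays the differences of these 7 were -1.62 (Slfn8), -1.50 (Trim34a), -2.09 (Ncapg2), -1.58 (Galc), -1.15 (Wfdc18), -2.02 (Pcolce2) and -1.47 (Oasl1), with adjusted p from 0.0554 to 0.706. Several of these calls were lost when 1 more array was left out beside replicate 3. The Wfdc18 call was lost in 10 of 11 such fits and held without C57 day 5 replicate 4. The Trim34a call was lost in 9 of 11 and held without C57 day 0 replicate 3 or C57 day 5 replicate 4. Without C57 day 5 replicate 1, 2 or 3, neither Wfdc18 nor Trim34a passed the filter on low values, and neither was tested. The Pcolce2 call was lost in 12 of 14 and held without replicate 1 of C57 or MRL at day 5. The Galc call was lost in 9 of 14 and the Slfn8 call in 8 of 14. The Galc call held without C57 day 0 replicate 1, C57 day 5 replicates 1 or 4, MRL day 0 replicate 2 or MRL day 5 replicate 2. The Slfn8 call held without any 1 C57 array of day 5, MRL day 0 replicate 3 or MRL day 5 replicate 1. The highest adjusted p in these fits were 0.198 (Trim34a), 0.1665 (Wfdc18), 0.1496 (Pcolce2), 0.119 (Galc) and 0.0872 (Slfn8). At day 5 the C57 and MRL ranges of all 11 of these genes, Pcolce2 included, did not overlap, with or without replicate 3, beside 2.6% of all probe sets tested with every array. The genes were called from these day 5 values and grouped by a wider strain gap at day 5 than at day 0, which favours such a separation.

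The 250 bases before the start site were read for the genes of this group, since several of them are receptors or effectors of myeloid cells and interferon responses. Searched on both strands were GAAANNGAAA, the core of an interferon-stimulated response element (ISRE), and GAGGAAGT, a core bound by PU.1, the myeloid transcription factor. The first stood in 2.98% and the second in 2.44% of 32851 RefSeq windows of that length. Of the 11 genes, all of which had a window, Fcgr4 and Slfn8 held the first and Fcgr4 and Cd300ld the second. The windows of these 3 genes are printed 5′ to 3′ on the gene's strand, from RefSeq (GRCm38.p6), with the matches in capitals; in Fcgr4 the second match and in Slfn8 the only one read as the reverse complement. The Fcgr4 window is chr1:171018676-171018925 on the plus strand, the Cd300ld window chr11:114989887-114990136 on the minus strand and the Slfn8 window chr11:83020811-83021060 on the minus strand.
Fcgr4: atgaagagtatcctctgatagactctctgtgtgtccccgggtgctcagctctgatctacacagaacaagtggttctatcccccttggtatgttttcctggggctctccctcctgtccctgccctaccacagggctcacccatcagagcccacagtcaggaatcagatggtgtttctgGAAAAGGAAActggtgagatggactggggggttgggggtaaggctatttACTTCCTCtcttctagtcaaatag
Cd300ld: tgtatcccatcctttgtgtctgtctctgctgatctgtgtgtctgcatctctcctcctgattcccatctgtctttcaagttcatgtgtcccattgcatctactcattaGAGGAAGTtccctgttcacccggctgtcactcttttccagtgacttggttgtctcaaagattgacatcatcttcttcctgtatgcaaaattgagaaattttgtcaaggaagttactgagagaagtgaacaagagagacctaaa
Slfn8: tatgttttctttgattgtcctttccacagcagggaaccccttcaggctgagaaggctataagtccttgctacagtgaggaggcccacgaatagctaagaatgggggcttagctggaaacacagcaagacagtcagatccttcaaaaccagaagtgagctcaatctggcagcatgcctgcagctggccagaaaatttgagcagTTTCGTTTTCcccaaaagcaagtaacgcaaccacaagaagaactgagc
The Fcgr4 matches lie at -73 to -64 and -24 to -17 from the start site, that of Cd300ld at -143 to -136 and that of Slfn8 at -48 to -39. Of the 19 genes with a window among the 26 that rose beyond C57 in MRL, 1 (Clca3a1) held the first motif and 0 the second. A match is a description of the letters and shows no binding.

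**Figure D3:**
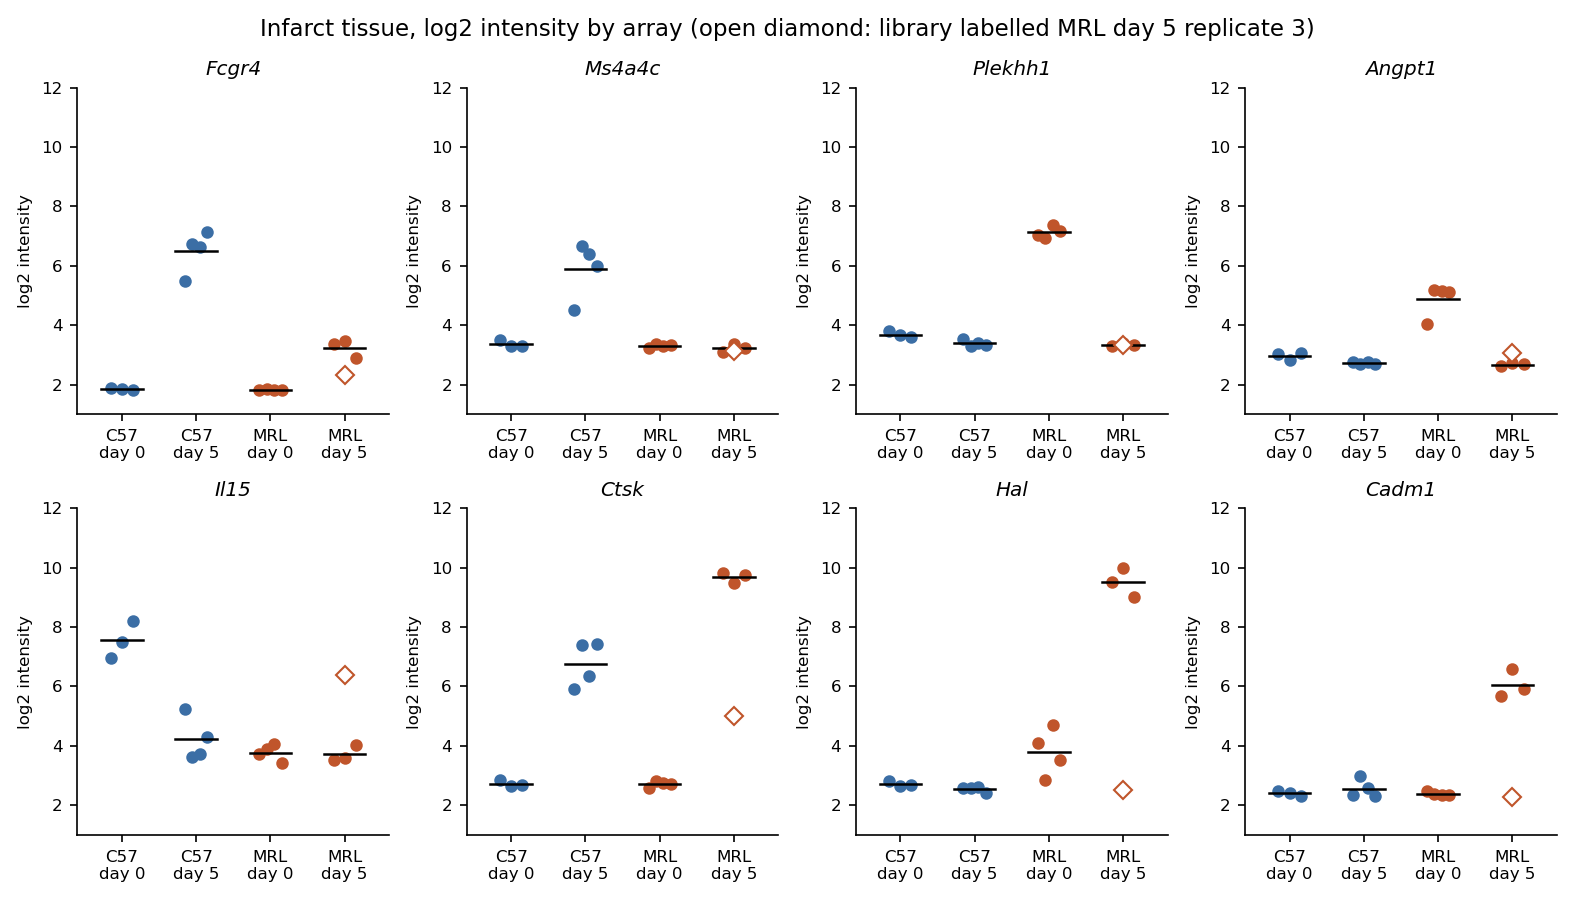
Log2 intensity (vertical axis) of 8 genes in each C57 and MRL infarct-tissue array of day 0 and day 5 (horizontal axis), filled points, with the group mean as a line. The open diamond is the library labelled MRL day 5 replicate 3, left out of the mean; it lies with the other MRL arrays for Ms4a4c and Plekhh1, and apart from them for Il15 (6.38), Ctsk (5.02), Hal (2.50) and Cadm1 (2.28).

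A group of 9 genes was higher in MRL hearts than in C57 hearts before the infarct and fell in MRL by day 5, while no change was called in C57; 6 of them were called with and without replicate 3. Plekhh1, a protein with pleckstrin homology and FERM domains, was at 7.02, 6.92, 7.39 and 7.16 in MRL at day 0 and at 3.30, 3.39 and 3.33 at day 5, with 3.34 in replicate 3. In C57 it lay between 3.31 and 3.79 on both days. Its difference was -3.49 ± 0.57 without replicate 3 (adjusted p = 0.00256) and -3.49 ± 0.54 with all arrays (adjusted p = 0.00384), and a second Plekhh1 probe set was called in the same direction. The gene was thus 3.44 log2 units higher in MRL before the infarct and 0.05 log2 units below C57 after it.

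Angpt1, the ligand of the endothelial receptor Tie2 that steadies vessels, was at 4.05, 5.18, 5.16 and 5.13 in MRL at day 0 and at 2.61, 2.71 and 2.70 at day 5, with 3.07 in replicate 3. C57 arrays had 2.84 to 3.08 at day 0 and 2.68 to 2.77 at day 5, and the strains overlapped at day 5 but not at day 0. Its difference was -1.95 ± 0.29 (adjusted p = 0.000927), and -1.85 ± 0.28 with all arrays (adjusted p = 0.00384). It was the 1 called member of the 27 endothelial genes tested, in either fit, beside 0.156% of all probe sets with all arrays and 0.577% without replicate 3. Kcnj5, a subunit of the acetylcholine-gated potassium channel of the heart, was at 4.18 to 4.82 in MRL at day 0, at 2.75 to 3.04 in the 4 MRL arrays of day 5 and at 2.59 to 3.17 in C57 on both days. Its difference was -1.40 ± 0.21 (adjusted p = 0.00116), and -1.34 ± 0.20 with all arrays (adjusted p = 0.00384). Mme, the membrane metallopeptidase neprilysin that cleaves natriuretic peptides, was at 4.81 to 5.48 in MRL at day 0 and at 2.91 to 3.48 at day 5, with a difference of -1.45 ± 0.28 (adjusted p = 0.0114), and -1.54 ± 0.27 with all arrays (adjusted p = 0.0117). That call was lost without MRL day 5 replicate 1 (adjusted p = 0.0533) or replicate 4 (adjusted p = 0.0518) left out beside replicate 3, and, of all arrays, without C57 day 0 replicate 2 (adjusted p = 0.0573) or 3 (adjusted p = 0.0599). Fam81a and Lgi1, a secreted protein known from neurons, differed by -1.44 ± 0.27 (adjusted p = 0.0106) and -1.77 ± 0.35 (adjusted p = 0.0176). The Lgi1 call was lost when MRL day 5 replicate 1, 2 or 4 or C57 day 0 replicate 2 or 3 was left out, with adjusted p up to 0.0628. With all arrays Fam81a differed by -1.43 ± 0.26 (adjusted p = 0.0133) and Lgi1 by -1.75 ± 0.34 (adjusted p = 0.0251). Of these, Fam81a lost its call without C57 day 0 replicate 2 or 3 or MRL day 0 replicate 3 (adjusted p up to 0.0624). Lgi1 lost it without any of C57 day 0 replicates 2 and 3, C57 day 5 replicates 3 and 4 and MRL day 5 replicates 1, 2 and 4 (up to 0.104).

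Zfp30, a zinc finger protein, Abhd10, a mitochondrial hydrolase, and L3hypdh, a hydroxyproline dehydratase, completed the group. They were called without replicate 3 and not with all arrays. With array weights, which keep replicate 3 but may count it for less, all 3 were called. That fit called 102 of 12834 probe sets as negative. Zfp30 was at 5.75 to 6.68 in MRL at day 0 and at 3.43 to 3.76 in replicates 1, 2 and 4 at day 5, with 3.36 in replicate 3, and differed by -2.24 ± 0.51 (adjusted p = 0.0459). L3hypdh and Abhd10 each differed by -1.56 ± 0.35 (adjusted p = 0.0451). With all arrays the differences were -2.31 (Zfp30), -1.65 (L3hypdh) and -1.24 (Abhd10), with adjusted p of 0.0585, 0.0554 and 0.808. Without C57 day 0 replicate 2, L3hypdh was called with replicate 3 kept. Leaving out any 1 more array beside replicate 3 ended the Zfp30 call in 14 of 14 fits (adjusted p up to 0.157). It ended the Abhd10 call in 13 of 14 (up to 0.1745; held without MRL day 5 replicate 4) and the L3hypdh call in 12 of 14 (up to 0.189; held without C57 replicate 2 of day 0 or day 5). Before the infarct the strain ranges did not overlap for any of the 9 genes, beside 15.2% of all probe sets. Of the 9, 8 were called as higher in MRL at day 0, beside 0.826% of all probe sets. The genes were called from these same day 0 values and grouped by a wider strain gap at day 0 than at day 5. That choice favours both counts. At day 5 the MRL minus C57 difference lay between -0.62 (Abhd10) and 0.33 (Zfp30). With 32 added to the intensities before log2, which damps low values, the Fam81a, Kcnj5 and Lgi1 calls without replicate 3 were lost (adjusted p = 0.0705, 0.062 and 0.117). With all arrays the offset ended the calls of these 3 and also that of Angpt1 (adjusted p = 0.0664 for Angpt1).

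In the opposite direction, Il15, Pttg1 and Phkg1 were higher in C57 hearts before the infarct and fell there, with a positive difference called with and without replicate 3. With replicate 3 kept, these calls were lost with only the 4 compared groups in the fit. There 0 of 12434 probe sets were called as positive. Il15 encodes interleukin 15, the cytokine that sustains natural killer and memory T cells. Its level was 6.97, 7.48 and 8.22 in C57 at day 0 and 5.24, 3.62, 3.74 and 4.29 at day 5. MRL was low on both days, at 3.71, 3.88, 4.05 and 3.44 and then 3.52, 3.59 and 4.05, except for the library labelled replicate 3 at 6.38, which lay above the 7 other MRL arrays and above the 4 C57 arrays of day 5. Il15 fell by 3.34 log2 units in C57, and the difference of changes was 3.28 ± 0.48 without replicate 3 (adjusted p = 0.000927) and 3.95 ± 0.70 with all arrays (adjusted p = 0.0117, or 0.0692 without C57 day 0 replicate 3).

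Pttg1, securin, which keeps the cohesin-cutting enzyme separase in check until anaphase, was the 1 gene of the 49 called in both strains in opposite directions: it fell in C57 and rose in MRL. C57 arrays had 11.96, 11.58 and 11.96 at day 0 and 11.42, 10.30, 10.25 and 9.98 at day 5, and MRL arrays had 7.77, 7.85, 7.82 and 7.49 and then 8.78, 9.60 and 9.11, with 10.88 in replicate 3. The strains stayed apart on both days without replicate 3, which lay inside the C57 range of day 5. The difference of Pttg1 was 2.78 ± 0.43 (adjusted p = 0.00183), and 3.20 ± 0.53 with all arrays (adjusted p = 0.00963). Phkg1, the catalytic subunit of muscle phosphorylase kinase, was at 5.54, 7.09 and 6.44 in C57 at day 0 and at 4.12 to 4.38 at day 5, and between 4.16 and 4.55 in all MRL arrays. Its difference was 1.80 ± 0.37 (adjusted p = 0.0226), and the call was lost when any of 7 single arrays was left out as well, with adjusted p up to 0.0818. These arrays were C57 day 0 replicates 2 and 3, MRL day 0 replicates 1 and 4 and MRL day 5 replicates 1, 2 and 4. With all arrays the Phkg1 difference was 1.84 ± 0.35 (adjusted p = 0.0251). That call was lost without any of C57 day 0 replicates 2 and 3, C57 day 5 replicates 2, 3 and 4, MRL day 0 replicates 1 to 4 and MRL day 5 replicates 2 and 4 (adjusted p up to 0.104). Without replicate 3, a second probe set had the same direction without a call for Phkg1 (adjusted p = 0.0742), and with one for Pttg1, whose MRL change was not called there. With all arrays neither of these second probe sets was called (adjusted p = 0.0774 for Phkg1 and 0.105 for Pttg1). All 3 were apart between the strains at day 0 in every array, which their grouping by a wider gap at day 0 favours.

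The largest group, 26 genes, rose in MRL infarcts beyond C57 and was called without replicate 3; with all arrays 0 of the 26 were called by limma, and the smallest adjusted p among them was 0.434. With array weights, which keep replicate 3 but may count it for less, 25 of the 26 were called, all but Cpxm1 (adjusted p = 0.0629). That fit called 67 of 12834 probe sets as positive, against 3 without weights. No other alternative that kept replicate 3 called any of the 26. Since the 26 were chosen without replicate 3, the weighted fit is not a separate test of them. In each of the 26, replicate 3 lay below replicates 1, 2 and 4, beside 38.1% of all genes tested. The choice of genes without that array favours such a position. The library labelled C57 noninfarct day 5 replicate 3 lay above the other 3 arrays of its group for 22 of the 26, beside 36.5% of all genes tested. Without replicate 3 the C57 and MRL ranges of day 5 did not overlap for any of the 26, beside 10.6% of all probe sets. With it 0 of the 26 were apart. The 26 were called and grouped by these day 5 values without replicate 3, which favours the separation seen without that array. In 18 of the 26 no change was called in C57, and in 8 both strains rose.

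Hal encodes histidine ammonia lyase, the first enzyme of histidine breakdown, known from liver and skin. It was at 2.83, 2.64 and 2.67 in C57 at day 0 and at 2.59, 2.57, 2.60 and 2.43 at day 5. In MRL it was at 4.11, 2.86, 4.72 and 3.53 at day 0 and at 9.53, 9.996 and 9.004 at day 5, with 2.50 in replicate 3. Replicate 3 thus lay within the C57 range, while the library labelled C57 noninfarct day 5 replicate 3 was at 9.22, where the other 3 of its group had 2.54 to 2.75. Hal rose by 5.71 log2 units in MRL without replicate 3, for a difference of 5.88 ± 0.58 (adjusted p = 5.79e-06), and the difference with all arrays was 4.13 ± 1.49 (adjusted p = 0.993).

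Proteases and other enzymes of bone-resorbing cells and macrophages were among the 8 genes that rose in both strains and further in MRL. Ctsk, cathepsin K, the collagen-cutting cysteine protease of osteoclasts, was at 2.57 to 2.84 in all 7 arrays of day 0 and at 5.93, 7.40, 6.35 and 7.42 in C57 at day 5. MRL arrays had 9.84, 9.48 and 9.76, with 5.02 in replicate 3. Ctsk rose by 4.05 log2 units in C57 and by 6.97 in MRL without replicate 3, from the same low level, and the difference was 2.92 ± 0.39 (adjusted p = 0.000251), or 1.75 ± 1.00 with all arrays (adjusted p above 0.99). Acp5, the tartrate-resistant acid phosphatase of osteoclasts and some macrophages, was at 5.32 to 6.82 in C57 at day 5 and at 8.86, 8.89 and 9.25 in MRL, with 4.35 in replicate 3, and differed by 2.96 ± 0.34 (adjusted p = 3.22e-05). Mmp9, gelatinase B, a matrix protease of neutrophils, macrophages and osteoclasts, had no called change in C57, where day 5 arrays had 3.47 to 3.87, and stood at 7.44, 5.53 and 6.76 in MRL, with 3.63 in replicate 3. Its difference was 2.82 ± 0.53 (adjusted p = 0.0105), a second Mmp9 probe set was called in the same direction, and the call was lost without MRL day 5 replicate 4 (adjusted p = 0.0528). With all arrays Acp5 differed by 1.79 ± 0.97 and Mmp9 by 2.08 ± 0.77, and neither was called. Of the 4 neutrophil markers tested, Mmp9 alone had a positive difference without replicate 3, and the median of the 4 was -0.44.

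Secreted and matrix proteins were also among the 26. Clca3a1, a secreted regulator of chloride channels, rose in both strains and differed by 3.01 ± 0.55 (adjusted p = 0.00779), with 3.43 to 6.08 in C57 at day 5, 8.49, 8.23 and 7.61 in MRL and 2.96 in replicate 3. Cpxm1, a secreted carboxypeptidase-like protein, was at 6.00 to 6.89 in C57 and at 8.37, 8.39 and 7.83 in MRL, with 4.55 in replicate 3, and differed by 1.62 ± 0.27 (adjusted p = 0.00404). Abi3bp, a matrix protein that binds integrins, differed by 1.76 ± 0.35 (adjusted p = 0.0156), and Clec11a, a growth factor for bone-forming cells, by 1.62 ± 0.36 (adjusted p = 0.0386). The Abi3bp call was lost without C57 day 0 replicate 1 or MRL day 5 replicate 1 or 4 beside replicate 3 (adjusted p up to 0.0826). The Clec11a call was lost in 12 of 14 such fits (up to 0.173) and held without C57 day 5 replicate 4 or MRL day 5 replicate 1. A second Abi3bp probe set, at 0.09 without replicate 3, was not called. Gdf3, a ligand of the TGF-beta family, differed by 1.52 ± 0.24 (adjusted p = 0.00201), and Lbp, which hands bacterial lipopolysaccharide to CD14, by 1.48 ± 0.32 (adjusted p = 0.0365). The Lbp call was lost in 10 of 14 such fits (up to 0.157), and held without C57 day 5 replicate 1 or 4, MRL day 0 replicate 2 or MRL day 5 replicate 4. Cfi, complement factor I, the protease that inactivates complement fragments, was at 2.07 to 2.49 in all C57 arrays and at 4.62, 4.86 and 4.61 in MRL at day 5, with 2.03 in replicate 3, for a difference of 2.62 ± 0.20 (adjusted p = 2.13e-07). With all arrays the differences were 1.72 (Clca3a1), 0.70 (Cpxm1), 1.16 (Abi3bp), 0.83 (Clec11a), 0.99 (Gdf3), 1.18 (Lbp) and 1.96 (Cfi), with adjusted p from 0.464 upwards.

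The other 15 of the 26 genes had varied roles. Cadm1, an immunoglobulin-like adhesion molecule, was at 2.31 to 3.00 in C57 at day 5 and at 5.67, 6.58 and 5.92 in MRL, with 2.28 in replicate 3, and differed by 3.51 ± 0.30 (adjusted p = 5.60e-07). Ifi202b, an interferon-inducible DNA-binding protein, was at 3.04 to 3.18 in C57 at day 5 and at 6.55, 7.49 and 7.07 in MRL, with 3.04 in replicate 3, and differed by 3.62 ± 0.38 (adjusted p = 1.27e-05). Its direction was opposite to that of Oasl1 and Slfn8, which rose in C57. Serpinb9b, a serine protease inhibitor of the granzyme B inhibitor family, differed by 2.45 ± 0.31 (adjusted p = 8.89e-05), and Hpgd, which breaks down prostaglandins, by 2.48 ± 0.29 (adjusted p = 3.22e-05). Calml4, a calmodulin-like protein, differed by 2.41 ± 0.19 (adjusted p = 2.13e-07). Eno2 (neuronal enolase), Gabbr1 (a GABA-B receptor subunit) and Maoa (monoamine oxidase A), all known from neurons, differed by 2.45 ± 0.40, 2.63 ± 0.43 and 2.24 ± 0.43 (adjusted p = 0.0027, 0.00293 and 0.0135). Myo1f, a myosin of leukocytes, rose in both strains and differed by 2.15 ± 0.43 (adjusted p = 0.0189), a call lost without any 1 of the 3 C57 arrays of day 0 (adjusted p up to 0.0584). Prkar1b, a regulatory subunit of protein kinase A, Nkd2, a Wnt antagonist, Tpbg, a membrane glycoprotein, Slc25a24, a mitochondrial carrier, Zfp90 and Clba1 differed by 0.95 to 1.96 log2 units. Of these, the Zfp90 call held in the 11 fits with 1 more array left out that tested it. The call was lost in 10 of 11 for Slc25a24, 9 of 14 for Nkd2 and for Prkar1b, 8 of 14 for Tpbg and 5 of 11 for Clba1. The arrays whose loss ended all 5 of these calls were C57 day 0 replicates 1, 2 and 3 and MRL day 0 replicates 1 and 4. Without MRL day 5 replicate 1, 2 or 4, Zfp90, Slc25a24 and Clba1 did not pass the filter on low values and were not tested. With all arrays the differences were 2.57 (Cadm1), 2.62 (Ifi202b), 1.75 (Serpinb9b), 1.79 (Hpgd), 1.80 (Calml4), 1.83 (Eno2), 1.97 (Gabbr1), 1.68 (Maoa) and 1.41 (Myo1f), with adjusted p from 0.434 upwards. For Prkar1b, Nkd2, Tpbg, Slc25a24, Zfp90 and Clba1 they were not below 0.70, and none was called (adjusted p not below 0.434).

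The day 1 arrays gave the same contrast at an earlier time. The difference of changes at day 1, from the same day 0 arrays, was called for 8 of 12827 probe sets (0.0624%) without MRL day 5 replicate 3, and for 3 of the 49 genes: Angpt1 at -1.92 ± 0.28 (adjusted p = 0.0044), Kcnj5 at -1.36 ± 0.20 (adjusted p = 0.00449) and Il15 at 2.57 ± 0.47 (adjusted p = 0.037). In the 9 genes that fell from a higher MRL level, the day 1 difference was between -2.78 and -0.47, and the day 5 difference was not called as different from it, with the smallest adjusted p for the change between the days at 0.382 (Abhd10, -1.09). In the 26 genes that rose in MRL it was between -0.56 and 1.75 at day 1, and in 24 of them the day 5 difference was called as larger than that of day 1 (day 5 minus day 1, without replicate 3), beside 0.257% of all probe sets. Ifi202b (1.75 at day 1) and Eno2 (1.58) had the highest day 1 differences in that group, neither called. In the 10 genes that rose in C57, the day 5 difference was called as more negative than that of day 1 in all 10, beside 0.125% of all probe sets, with Fcgr4 at -0.13 on day 1. In all, the days were called as different for 36 of the 49 genes; both days share the day 0 arrays, and the call on day 5 had chosen the genes.

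The noninfarct remainder of the left ventricle gives the same contrast in other arrays. Both pieces were cut from each heart, so arrays of the regions may share hearts, and whether a shared replicate number marks a shared heart is not given in the sources used here. There, without the library labelled C57 noninfarct day 5 replicate 3, 10 of 12298 probe sets (0.0813%) were called (1 of 12344 with it), and of the 49 genes 26 passed the filter on low values, of which 24 had a difference of the same sign and 5 were called: Hal (2.84 ± 0.35), Ifi202b (2.47 ± 0.26), Serpinb9b (2.15 ± 0.33), Ctsk (2.70 ± 0.50) and Pttg1 (1.69 ± 0.28). Adjusted p were 0.000605, 7.31e-05, 0.00448, 0.0406 and 0.0106. Of the 9 genes that fell from a higher MRL level, 7 were tested there, all with a negative difference, and the smallest adjusted p was that of Plekhh1, at -2.33 ± 0.46 (adjusted p = 0.0724). The share of all genes with the same sign in both regions is not given here. The 24 of 26 and the 7 can therefore not be set against it. The test of the difference between the regions, over 44 arrays taken as separate samples, called 10 of 13121 probe sets (0.0762%) and 6 of the 49 genes: Cfi (2.36 ± 0.24), Calml4 (1.59), Cadm1 (3.30 ± 0.35), Gabbr1 (2.52), Myo1f (2.17) and Kcnj15 (-1.94). These were farther from 0 in infarct tissue than in the rest of the ventricle. The 49 genes had been chosen by these same infarct arrays, which favours such a result, so the 6 calls are not a separate test. In the 44 arrays, Kcnj15 lay above the array median only in C57 infarct tissue of day 5. The others lay above it only in MRL infarct tissue of day 5. Each thus passed the filter on low values through the group where it was high. Over all 46 arrays this test called 0 probe sets (0%), with 295 (2.25%) at an unadjusted p under 0.05 (limma).

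**Figure D4:**
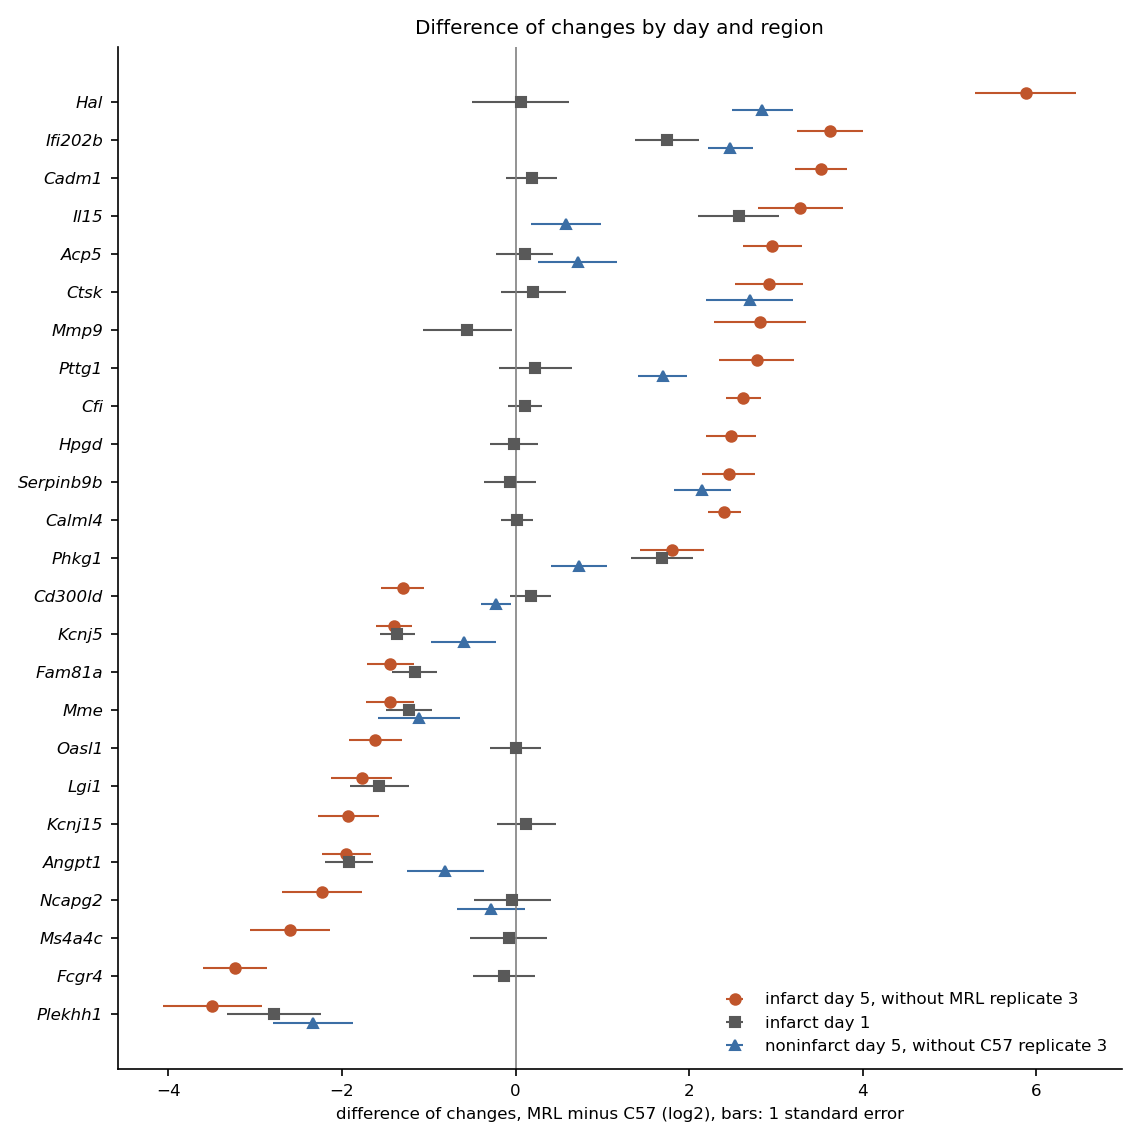
Difference of changes, MRL minus C57, in log2 units with 1 standard error (horizontal axis) for the 25 genes named by rule (vertical axis): infarct tissue at day 5 without MRL replicate 3 (circles), infarct tissue at day 1 (squares) and noninfarct tissue at day 5 without C57 replicate 3 (triangles, absent where the gene did not pass the filter there). At day 1, Plekhh1, Angpt1, Kcnj5 and Il15 lie away from 0 (-2.78, -1.92, -1.36 and 2.57), while Fcgr4, Ctsk, Hal and Cadm1 lie between -0.13 and 0.21.

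Of 38 gene lists for the cells and processes of a healing heart, 562 different members were tested. With all arrays 1 was called (0.178%, beside 0.171% of all genes tested), Angpt1, lower. Without replicate 3 these were 3 (0.534%, beside 0.644% of all genes): Angpt1, lower, and Ctsk and Mmp9, higher. These shares are near those of all genes. Median differences of whole lists depended on which day 5 arrays were used. The 24 heart muscle fibre genes had a median difference of -0.47 without replicate 3 and -0.06 with it, and 3 of them were lower at an unadjusted p under 0.05 in the first case. Fatty acid uptake and oxidation genes (22 tested) had -0.60 and -0.16, oxidative phosphorylation genes (24) -0.37 and 0.01, and heart ion channel genes (11) -0.66 and -0.20. In the other direction, macrophage and monocyte markers (29) had 0.51 and -0.06, lysosomal genes (17) 0.41 and -0.02 and collagens (18) 0.43 and -0.01, where the last value of the lysosomal genes and collagens turned to 0.04 and 0.05 after quantile normalization. The median over all genes tested was -0.05 in both fits.

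These medians moved again when C57 day 5 replicate 1, the C57 array with the most muscle signal, was left out too. Heart muscle fibre genes then had -0.14, fatty acid genes -0.25 and oxidative phosphorylation genes -0.09, while macrophage markers had 0.40, lysosomal genes 0.30 and collagens 0.29. Interferon response genes (26 tested) had -0.50 without replicate 3, -0.53 without both arrays and -0.30 with all, with 1 gene higher and 6 lower at an unadjusted p under 0.05 without replicate 3. MHC class II genes (9) had 0.31, 0.51 and 0.12 in the same order. Cell cycle genes (33) had 0.29, -0.02 and 0.16, so the sign turned without both arrays. The part of the differing muscle and macrophage signal in these medians was not tested.

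**Figure D5:**
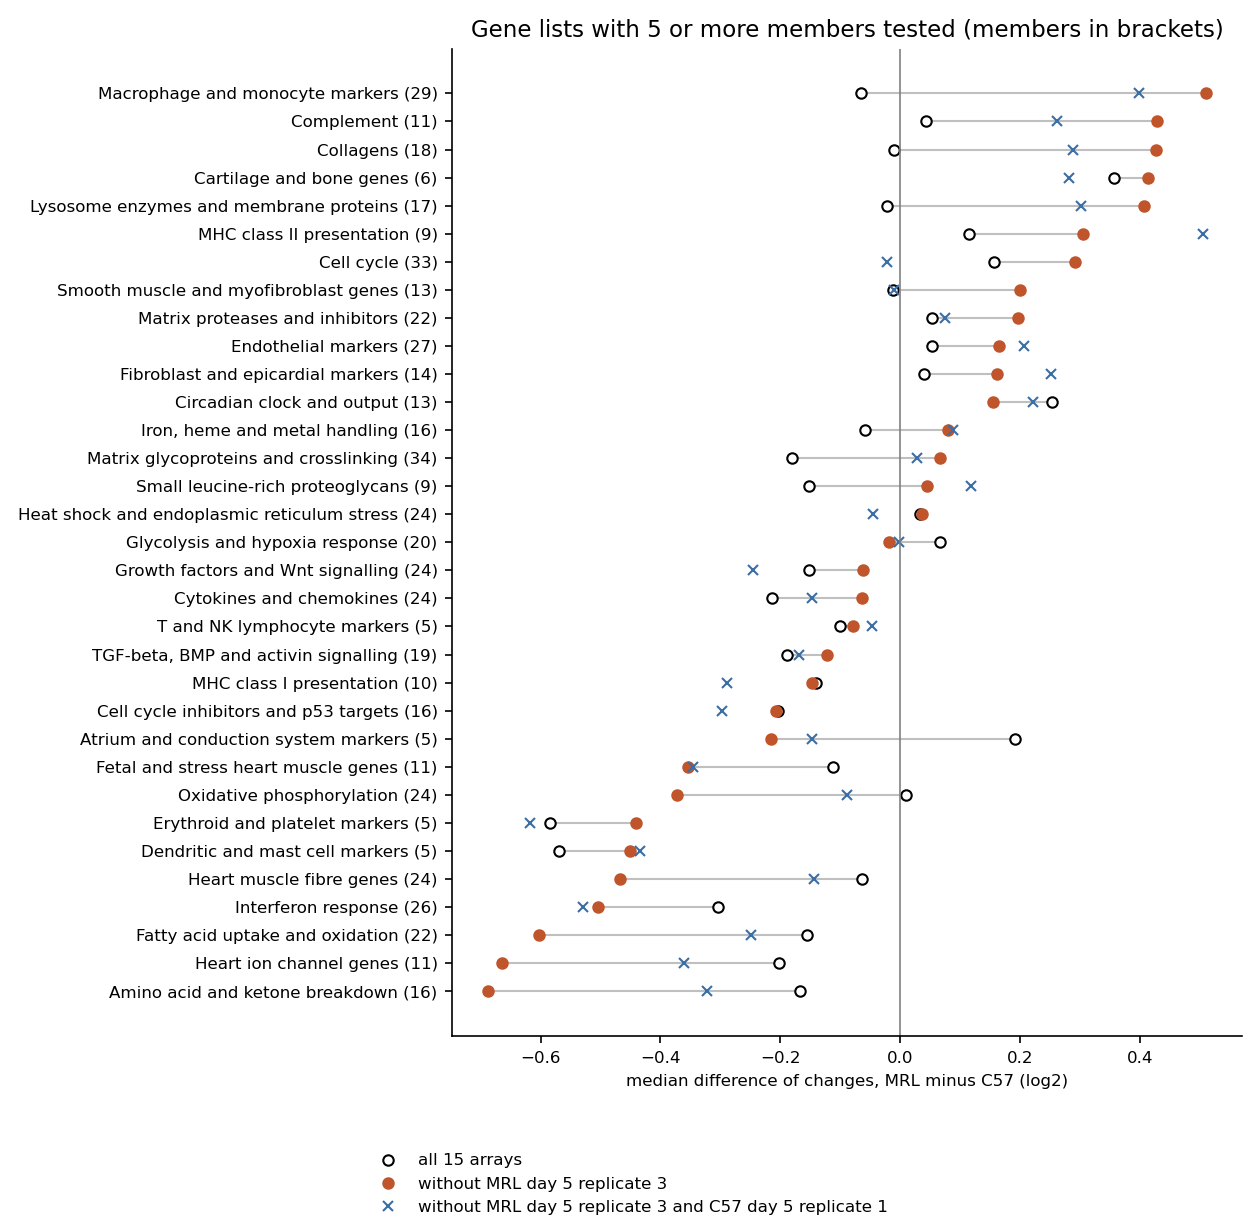
Median difference of changes, MRL minus C57, in log2 units (horizontal axis) for the gene lists with 5 or more members tested (vertical axis, members in brackets): all 15 arrays (open circles), without MRL day 5 replicate 3 (filled circles), and without that array and C57 day 5 replicate 1 (crosses). Heart muscle fibre genes move from -0.06 to -0.47 and -0.14, and macrophage and monocyte markers from -0.06 to 0.51 and 0.40.

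Of 20 genes widely used to follow an infarct, all 20 were called as changed from day 0 to day 5 in each strain, in the fit without replicate 3. Over all probe sets in that fit, 26.6% rose and 26% fell in MRL, and 25% rose and 20.7% fell in C57. For a difference of changes, 0 of the 20 were called by limma with all arrays or without replicate 3, beside 0.156% and 0.577% of all probe sets. At an unadjusted p under 0.05 there were 1 with all arrays (3.45% of all probe sets) and 3 (Acta2, H2-Aa and Cd74) without replicate 3 (6.77%). Timp1, the inhibitor of matrix metalloproteases, rose by 8.24 log2 units in C57 and by 8.77 in MRL without replicate 3, a difference of 0.53 ± 0.81. Col1a1, of collagen type I, rose by 5.49 and 5.88 (difference 0.39 ± 0.55), and Postn, the matrix protein periostin, by 5.30 and 5.40 (0.10 ± 0.40). Lgals3, galectin 3 of macrophages, rose by 8.72 and 10.1 (1.37 ± 0.89), and Mki67, of dividing cells, by 4.27 and 4.55 (0.27 ± 0.72). Myh6, the adult heart myosin, fell by 1.15 in C57 and by 1.65 in MRL (difference -0.50 ± 0.42). The largest values among the 20 were those of the MHC class II genes H2-Aa and Cd74, at 2.54 ± 0.88 (adjusted p = 0.435) and 1.73 ± 0.66 (adjusted p = 0.527). With array weights and without replicate 3, both were called (adjusted p = 0.0372 and 0.0453). With replicate 3 kept, array weights called H2-Aa (adjusted p = 0.0405) and not Cd74. At these probe sets both genes were lower in MRL hearts before the infarct, H2-Aa at 3.19 to 4.86 against 7.48 to 8.41 in C57. A second H2-Aa probe set had day 0 means of 4.43 in MRL and 5.32 in C57, a strain difference that was not called (adjusted p = 0.946). Its difference of changes without replicate 3 was 1.59 (adjusted p = 0.769). The median standard error of a difference over all genes was 0.375 without replicate 3, so a missing call does not show that the strains changed alike.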

How the data were processed

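RNA of 46 mouse heart samples was hybridised to MOE430A arrays, 1 sample each, and per the submitters' processing notes the authors summarised the deposited intensity values with GCRMA, on a linear scale; GCRMA corrects background and scales the arrays to each other, so values near the floor are compressed. The log2 of these intensities was taken with no further scaling. Of 22690 probe sets, 64 controls were left out; 20380 had 1 gene symbol in the platform annotation, 691 several and 1555 none. A probe set was tested if it lay above the array median in at least 3 arrays of the fit.

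Differences of changes were tested with limma (version 3.58.1, R 4.3.3) in a model with 1 mean for each of the 6 infarct-tissue groups of strain and day, over 23 arrays, or 22 without MRL day 5 replicate 3, with Benjamini-Hochberg adjustment over all probe sets tested and calls at an adjusted p under 0.05. Groups were taken from the sample titles. A gene was represented by its tested probe set with the highest mean over the 46 arrays. The p-values measure the spread between the labelled replicates, and the number of arrays limits the precision. Adjusted p-values in the text come from these limma fits.

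Genes named by rule were the 12 largest differences in each direction called with and without replicate 3, filled up by the smallest p without it, the called list members and 20 index genes. The other 24 of the 49 called genes were named after their values were seen. The genes, lists and tests were chosen with earlier results of these data known. Fits were tested on simulated data. The alternatives were an offset of 32, no filter, quantile normalization, centring on the median, only the compared groups, both regions in one fit, array weights, second probe sets, leaving out single arrays and the replicate number as a block, also across the regions. Promoter windows came from RefSeq (GRCm38.p6).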

Additional observations from a re-analysis of the deposited data

Results flagged for a closer look

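In groups of 4 arrays, 135 checks of a named gene in 1 group were made for an array far from the other 3, and 16 were past the limit, where chance gives about 1 in 20. Of the 16, 8 were the library labelled MRL infarct day 5 replicate 3. Cfi, Calml4, Hal, Acp5 and Ctsk had been named by the smallest p without this array, a choice that favours such genes, so the count is not to be read against chance. Lgals3, Col3a1 and Nppb were named whatever their values. It was far below the others for Cfi (2.03 against 4.61 to 4.86), Calml4 (2.21), Hal (2.50), Acp5 (4.35), Ctsk (5.02), Lgals3 (7.96 against 12.1 to 12.8) and Col3a1, of collagen type III (13.0 against 14.1 to 14.2), and far above them for Nppb, the B-type natriuretic peptide (12.8 against 11.1 to 11.2). MRL day 0 replicate 1 stood apart for Cadm1 (2.48), Angpt1 (4.05) and Tnc, the matrix protein tenascin C (4.07), and MRL day 0 replicate 2 for Timp1 (1.96). In C57 at day 5, replicate 4 stood apart for Hal (2.43) and Cdkn1a, an inhibitor of the cell cycle (9.33), replicate 2 for Cfi (2.47) and replicate 1 for Ncapg2 (5.62).

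The strains' changes differed by the test of the difference itself (limma, without MRL day 5 replicate 3) for 25 named genes. It was positive for Hal (5.88), Ifi202b (3.62), Cadm1 (3.51), Il15 (3.28), Acp5 (2.96), Ctsk (2.92), Mmp9 (2.82), Pttg1 (2.78), Cfi (2.62), Hpgd (2.48), Serpinb9b (2.45), Calml4 (2.41) and Phkg1 (1.80). It was negative for Plekhh1 (-3.49), Fcgr4 (-3.23), Ms4a4c (-2.60), Ncapg2 (-2.23), Angpt1 (-1.95), Kcnj15 (-1.93), Lgi1 (-1.77), Oasl1 (-1.61), Mme (-1.45), Fam81a (-1.44), Kcnj5 (-1.40) and Cd300ld (-1.30).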

How the results depend on the processing

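With all arrays, 20 probe sets were called. The count was 12 with only the 4 compared groups in the fit, 36 with both regions in one fit, 169 with array weights and 87 without both MRL day 5 replicate 3 and C57 day 5 replicate 1, and it lay between 16 and 27 with an offset, no filter, quantile normalization or centring. Leaving out 1 array at a time gave 12 (without C57 day 0 replicate 3) to 74 (without MRL day 5 replicate 3), with 36 without C57 day 5 replicate 1. Without MRL day 5 replicate 3, 74 were called, against 135 with both regions in one fit and 206 with array weights, and leaving out a further array gave 33 (without MRL day 5 replicate 4) to 87 (without C57 day 5 replicate 1). The cause was not tested, other than that fewer arrays enter.

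Of the gene calls, 2 of 13 (Fcgr4 and Plekhh1) with all arrays and 19 of 49 without replicate 3 were made under every alternative that tested them. A gene that did not pass the filter in a fit was not tested there. With MRL day 5 replicate 1, 2 or 4 left out beside replicate 3, 38 of the 49 were tested. The 19 include genes that those fits did not test, such as Cfi, Cadm1 and Zfp90. With an offset of 32, 15 of the 49 without replicate 3 (adjusted p from 0.0525 to 0.182) and 7 of the 13 with all arrays were not called. The direction turned once, at the second Galc probe set (1.38, adjusted p = 0.0831). Among the infarct groups of day 0 and day 5, shared replicate numbers did not pair samples: 5 of 21 same-numbered pairs of arrays had a correlation of deviations over 0.1, and in 12 of 42 comparisons of an array with another group its best match had its own number. With the number as a block, 22 probe sets were called with all arrays and 62 without replicate 3. Between the regions, 16 of 23 same-numbered pairs of a strain and day were over 0.1, and 13 infarct arrays correlated best with their own number, so pairing was not shown for every pair. With that number as a random block, chosen after seeing the data, the test between the regions called 18 probe sets in place of 10 over 44 arrays and 2 in place of 0 over all 46. Signals near the array floor limit what could be measured, since 43 of the 49 called genes had a mean in 1 or more groups lower than every array median.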

Other observations

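Several called probe sets did not represent a gene by the rule, and the differences of some, without replicate 3, are given here. A probe set of H2-K1, a classical MHC class I gene, differed by 3.27, and of the H2-D1 probe sets, for another such gene, one differed by 2.92 and another by -1.71, in opposite directions within 1 gene symbol. Probe sets of both genes were also among the 13 that separated the strains. Of H2-D1, one was higher in C57 (mean 10.2 against 5.74 in MRL) and another higher in MRL (8.96 against 4.93 in C57). A probe set of Vegfd, a growth factor for lymphatic vessels, differed by 1.28, one of Pclaf, which binds the replication clamp, by -2.58, and one of Ifi209, an interferon-inducible gene, by -4.00. These were chosen after their values were seen.

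Since Ctsk, Acp5 and Mmp9 are known from osteoclasts, 3 further genes that act in that cell type, though not only there, were looked at after those values were seen. Nfatc1, its transcription factor, differed by 1.12 (adjusted p = 0.393, limma without replicate 3), Tcirg1, a subunit of its proton pump, by 1.59 (adjusted p = 0.194), and Atp6v0d1, another pump subunit, by 0.38 (adjusted p = 0.945). None of the 3 was called.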
